A study of Mus musculus with 9 samples.

Results

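The aminoacyl-tRNA synthetases were examined in the liver as 1 group of 36 genes, 20 cytosolic and 16 mitochondrial, out of the 33211 genes of the deposited table. The members were taken by gene symbol alone, with symbols that end in 2 counted as mitochondrial and the rest as cytosolic. All 36 had a row, and all 36 passed the filter on low counts that left 14220 genes for the test. Of these 36 genes, 31 had a log2 fold change above 0 in the fridge-diet group, but only Tars, the threonine enzyme, passed the adjusted threshold of 0.05. The cytosolic genes were higher by a median of 0.20 on the log2 scale, the mitochondrial genes by a median of 0.07, and all tested genes had a median of -0.01.

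The livers came from young male wild-type mice of a widely used inbred strain, C57BL/6 in the labels and C57BL6/J in the methods of the study. Both groups ate the same high-fat diet (HFD), side by side and in the same animal facility, and only its storage after opening differed. The diet was kept in a freezer for the HFDfre group (5 libraries) and in a fridge for the HFDfri group (4 libraries), with 1 library per animal. The comparison, always given here as HFDfri minus HFDfre, asks whether hepatic transcripts depend on how the diet was stored.

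An aminoacyl-tRNA synthetase joins one kind of amino acid to the tRNAs that carry it to the ribosome, so every protein a cell makes depends on the full set. Mammals use one set in the cytosol and another in mitochondria, where a small number of proteins of the respiratory chain are made, and the mitochondrial enzymes are also encoded in the nucleus. Gars and Kars, for glycine and lysine, are single genes that serve both places. Several cytosolic synthetases sit together in the multisynthetase complex, held by the scaffold proteins Aimp1, Aimp2 and Eef1e1. Many cytosolic synthetase genes are known targets of ATF4, a transcription factor made when cells are short of amino acids or their endoplasmic reticulum is under stress, and uncharged tRNA is the signal sensed by the kinase GCN2 (Eif2ak4). The liver, which secretes most plasma proteins, has a high demand for all of these enzymes.

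To show the sequence through which ATF4 is known to act, the starts of the genes were searched in windows from 250 bases before to 50 bases after the start (RefSeq, GRCm38.p6). Such a window was at hand for 26 of the 36 members, 12 of them cytosolic. The core of the C/EBP-ATF element was searched as TGATGNAA on both strands. It was found in 5 of the 26 members, and all 5 were cytosolic (Aars, Gars, Iars, Tars and Yars). Of all 32851 windows, 3.97% held it. A match describes the letters in the window and is not evidence of binding. A window of 30 bases around a match of each is printed 5′ to 3′ on the strand that holds the core, with the core in capitals, because these are the members whose start region carries it, and positions are those of the match shown:
Tars, chr15:11399655-11399684, plus strand: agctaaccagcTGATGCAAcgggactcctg
Iars, chr13:49682126-49682155, minus strand: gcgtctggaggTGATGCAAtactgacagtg
Gars, chr6:55037960-55037989, minus strand: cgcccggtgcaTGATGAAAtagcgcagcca
Yars, chr4:129189895-129189924, plus strand: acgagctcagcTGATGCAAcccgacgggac
Aars, chr8:111033840-111033869, minus strand: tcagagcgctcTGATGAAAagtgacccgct
Counted from the annotated start, with positions before it negative, the matches shown begin at -15 in Tars, -30 in Gars, 3 in Yars, 7 in Iars and 9 in Aars. Aars held another match, not printed, that begins at -112.

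As Tars was the member past the adjusted threshold, the 250 bases before its start are shown on the strand of the gene (chr15:11399659-11399908, minus strand), with the core, here on the opposite strand, in capitals:
Tars: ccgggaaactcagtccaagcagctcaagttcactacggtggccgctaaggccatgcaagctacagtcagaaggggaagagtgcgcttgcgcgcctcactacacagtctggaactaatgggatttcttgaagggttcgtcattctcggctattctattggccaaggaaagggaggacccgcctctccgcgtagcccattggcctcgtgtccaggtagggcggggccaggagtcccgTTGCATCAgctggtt
The E-box CACGTG, a site for MYC and related factors, was found in 5 of the 26 members (Aars, Ears2, Farsb, Iars and Tars), against 7.15% of all windows. The ER stress element, searched as CCAAT, any 9 bases and CCACG, was found in 0 of the 26 members and in 0.119% of all windows. Neither motif shares a match with the core above.

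The libraries held between 58614917 and 69353439 counts, the largest 1.18 times the smallest, and values are given as CPM, counts scaled to a common library size with TMM factors, with the SD over libraries. A ribosomal RNA-like locus, Gm26924, took from 0.466% to 11.1% of the counts of a library, with 4 libraries over 3% (HFDfre 1, 2 and 4 and HFDfri 3). The 35 synthetases other than Lars2 took 0.0745% to 0.0919% of the counts in HFDfre and 0.0972% to 0.111% in HFDfri, without overlap. Mitochondrial transcripts took 11.4% to 19.8% of the counts in HFDfre and 8.93% to 13.6% in HFDfri, and their part in these shares was not tested. All 10 hepatocyte markers were detected, with a summed level of 105500 to 112760 CPM in HFDfre and 97299 to 126030 CPM in HFDfri. This sum was carried mostly by Alb, and single markers went both ways: Fgb (0.82), Cps1 (0.70) and Apob (0.26) had an unadjusted p under 0.05 with HFDfri higher and Ttr (-0.43) with HFDfri lower, on the log2 scale, and Fgb did not overlap. The summed markers of the other cell types ran from 79.2 to 169 and 91.4 to 122 CPM for the 9 of macrophages, from 82.8 to 103 and 67.5 to 114 CPM for the 8 of endothelial cells, and from 181 to 302 and 155 to 245 CPM for the 8 of stellate cells. They ran from 26.0 to 46.7 and 23.9 to 47.5 CPM for the 6 of cholangiocytes and from 4.53 to 8.92 and 3.65 to 5.13 CPM for the 6 of 7 lymphocyte markers that were tested. The ranges overlapped in each, but all 6 lymphocyte markers had log2 fold changes below 0 (median -0.91), and 5 of the 8 stellate markers did (median -0.24). So did 7 of the 9 macrophage markers (median -0.14), 5 of the 8 endothelial (-0.07) and 4 of the 6 cholangiocyte (-0.14), where 49.1% of all tested genes were above 0. Among these 5 types an unadjusted p under 0.05 by edgeR was found for Des and Col3a1 (stellate, HFDfri lower) and Sox9 (cholangiocyte, 0.93, HFDfri higher). The shares of all tested genes were 9.79% lower and 11.4% higher. The part of these shifts in the results on the synthetases was not tested. Of the 5 adipocyte markers only Cidec was tested, at 4.25 to 38.9 and 3.73 to 14.7 CPM, and the defining markers Adipoq and Plin1 were at 0 in all 9 libraries. In such bulk samples, fewer cells of a type and less RNA per cell cannot be told apart.

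Tars (ENSMUSG00000022241, chromosome 15, 11382301 to 11399665, GRCm38) was at 39.9, 40.0, 31.3, 37.8 and 40.0 CPM in HFDfre 1 to 5 and at 68.5, 57.5, 75.3 and 48.1 CPM in HFDfri 1 to 4. Every HFDfri library was thus above every HFDfre library, with HFDfri 3 the highest and HFDfri 4 the nearest to the other group. Tars rose 1.65-fold, with a mean of 37.8 ± 3.74 CPM in HFDfre (SD, n = 5) and of 62.3 ± 11.99 CPM in HFDfri (SD, n = 4). Its log2 fold change was 0.72 ± 0.13 (SE; adjusted p = 0.0354, edgeR's quasi-likelihood test). Of the 20 cytosolic genes it was the only one past the adjusted threshold, which 1.05% of all tested genes passed. The log2 fold change stayed between 0.62 and 0.83 over 20 alternatives, but the adjusted p passed 0.05 in only 11 of them. It was over 0.05 without any one of the 5 HFDfre libraries (edgeR adjusted p = 0.0690, 0.0509, 0.0932, 0.0585 and 0.0774 without HFDfre 1 to 5) and without HFDfri 3 (0.0953). Within the 5 libraries under a locus share of 3% (2 HFDfre, 3 HFDfri) the log2 fold change was 0.70, with an edgeR adjusted p of 0.408.

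**Figure D1:**
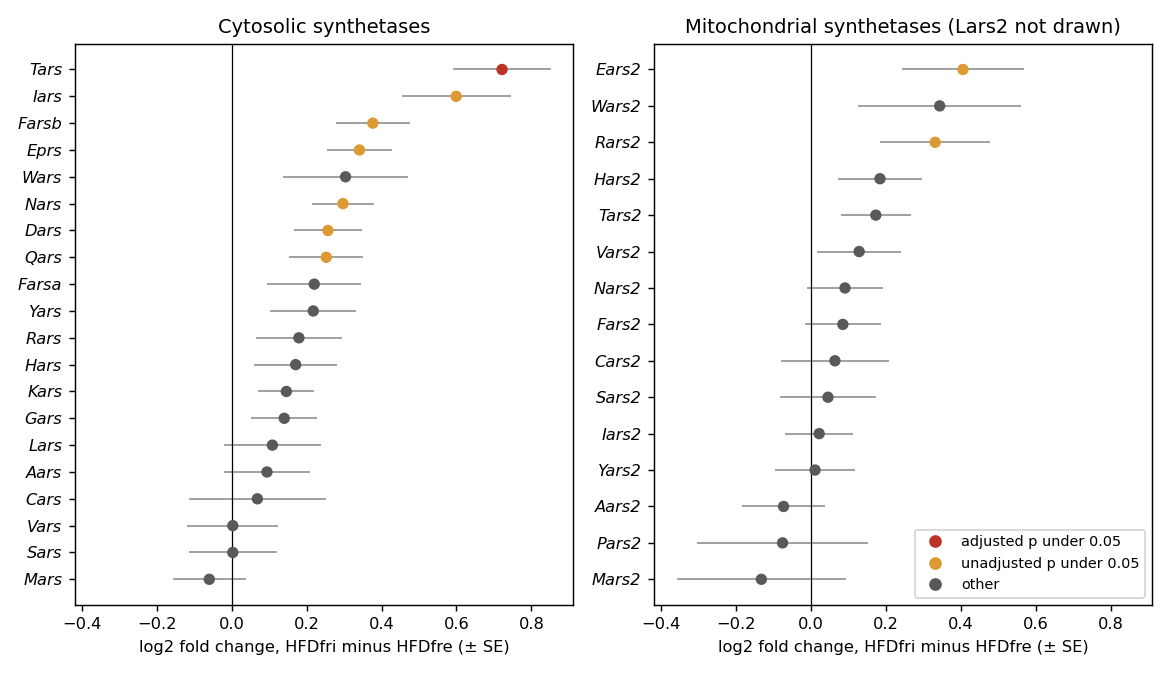
Log2 fold change of each synthetase (x axis, HFDfri minus HFDfre, with the standard error as a bar) for the 20 cytosolic genes and 15 of the 16 mitochondrial genes, each ordered by size. Lars2, at -1.56, is not drawn. Red marks an adjusted p under 0.05 (Tars, 0.72), orange an unadjusted p under 0.05, and grey the rest; the cytosolic points lie mostly to the right of 0, from -0.06 (Mars) upwards.

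A further 5 cytosolic genes, Iars, Eprs, Farsb, Nars and Qars, did not overlap between the groups. Together with Tars, these were 6 of the 20 cytosolic genes with every HFDfri library the higher, against 4.02% of all tested genes, and 0 of the 20 had every HFDfri library the lower, against 3.66%. An unadjusted p under 0.05 with HFDfri higher was found for 7 of the 20, the same 6 and Dars, against 11.4% of all tested genes, and with HFDfri lower for 0 of the 20, against 9.79%. A log2 fold change above 0 was found for 19 of the 20, against 49.1% of all tested genes.

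Iars, the isoleucine enzyme (ENSMUSG00000037851, chromosome 13, 49682100 to 49734267), was at 15, 16.7, 14.9, 15.8 and 13.9 CPM in HFDfre 1 to 5 and at 18.4, 21.4, 31.9 and 20.8 CPM in HFDfri 1 to 4. HFDfri 3 stood well above the other 3 HFDfri libraries. The log2 fold change of Iars was 0.60 ± 0.15 (SE; edgeR adjusted p = 0.0677). Leaving out HFDfri 3 lowered it to 0.40. Eprs, which charges both glutamate and proline tRNAs (ENSMUSG00000026615, chromosome 1, 185363044 to 185428360), was at 56.5, 58.2, 53.1, 49.8 and 52.0 CPM in HFDfre 1 to 5 and at 70.8, 68.2, 74.0 and 60.1 CPM in HFDfri 1 to 4. The HFDfri libraries of Eprs lay close together except HFDfri 4, which was just above the highest HFDfre library. Its log2 fold change was 0.34 ± 0.09 (SE), with an edgeR adjusted p of 0.0769.

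Phenylalanine tRNA is charged by an enzyme of 2 kinds of subunit, made from Farsa and Farsb. Farsb (ENSMUSG00000026245, chromosome 1, 78417975 to 78488897) was at 16.7, 18.5, 15.3, 16.5 and 17.1 CPM in HFDfre 1 to 5 and at 20.8, 22.6, 24.8 and 19.2 CPM in HFDfri 1 to 4. All HFDfri libraries were again the higher, and its log2 fold change was 0.38 ± 0.10 (SE; edgeR adjusted p = 0.0826). Its partner subunit Farsa had a log2 fold change of 0.22 (13.0 to 15.2 CPM), with overlap between the groups. Nars, for asparagine (ENSMUSG00000024587, chromosome 18, 64499647 to 64516652), was at 55.0, 55.8, 55.9, 53.6 and 58.7 CPM in HFDfre 1 to 5 and at 75.3, 63.7, 72.0 and 63.1 CPM in HFDfri 1 to 4. The HFDfre libraries of Nars were the tightest of these genes, and HFDfri 1 was the highest. Its log2 fold change was 0.30 ± 0.08 (SE), with an edgeR adjusted p of 0.0910.

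Qars, for glutamine, ranged from 27.98 to 33.3 CPM in HFDfre and from 34.5 to 44.5 CPM in HFDfri. Its log2 fold change was 0.25 ± 0.10 (SE), with an edgeR adjusted p of 0.180. Dars, for aspartate, was at 46.9, 57.1, 49.1, 54.8 and 51.4 CPM in HFDfre 1 to 5 and at 56.6, 62.1, 69.2 and 59.9 CPM in HFDfri 1 to 4. HFDfri 1 lay just below HFDfre 2, so the groups overlapped by 1 library on each side. The log2 fold change of Dars was 0.26 ± 0.09 (SE), with an edgeR adjusted p of 0.147. With DESeq2 on the same genes, Iars, Eprs, Farsb and Nars also passed the adjusted threshold (adjusted p = 0.00703, 0.0140, 0.0210 and 0.0258), so that 5 members were called, where 1033 genes were called in all.

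**Figure D2:**
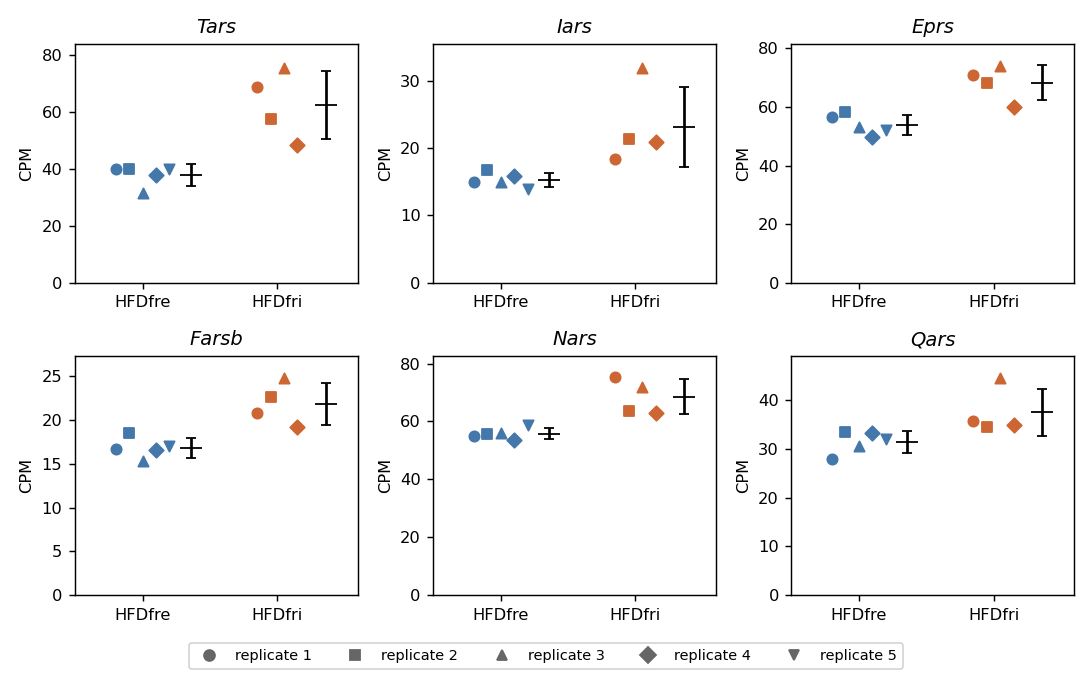
CPM (y axis, from 0) of the 6 cytosolic synthetases whose groups did not overlap, in the 5 HFDfre libraries (blue) and the 4 HFDfri libraries (orange), with the mean and SD of each group in black and a marker shape for each replicate number. Every orange point lies above every blue point; for Tars the nearest points are 48.1 and 40.0 CPM.

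Gars and Kars, the genes that serve both compartments, did not pass the test. Gars was at 25.4, 24.7, 22.5, 24.4 and 23.3 CPM in HFDfre 1 to 5 and at 30.0, 24.6, 25.3 and 26.1 CPM in HFDfri 1 to 4. Only HFDfri 1 stood clearly above the HFDfre libraries, and the log2 fold change of Gars was 0.14 ± 0.09 (SE, edgeR adjusted p = 0.395). Kars was at 38.3, 36.2, 34.8, 35.1 and 34.0 CPM in HFDfre 1 to 5 and at 39.4, 39.9, 40.8 and 37.7 CPM in HFDfri 1 to 4. Its groups overlapped through HFDfre 1 and HFDfri 4, with a log2 fold change of 0.15 ± 0.07 (SE, edgeR adjusted p = 0.290).

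The remaining cytosolic genes overlapped between the groups and did not pass the test. Wars (tryptophan) was at 12.6 and 15.5 CPM (0.30 on the log2 scale), and its HFDfri libraries included both the highest of all 9 at 20.4 CPM (HFDfri 1) and the lowest at 9.72 CPM (HFDfri 2). Yars (tyrosine) had a log2 fold change of 0.22 (19.5 to 22.7 CPM), Rars (arginine) of 0.18 (23.6 to 26.8 CPM) and Hars (histidine) of 0.17 (18.5 to 20.9 CPM). Lars (leucine) was at 15.6 and 16.8 CPM (0.11), Aars (alanine), the synthetase with the most CPM apart from Lars2, at 148 and 158 CPM (0.09), and Cars (cysteine) at 16.7 and 17.5 CPM (0.07). Sars (serine, 49.1 and 49.2 CPM) and Vars (valine, 18.1 and 18.2 CPM) both had a log2 fold change of 0.00. Mars (methionine, 39.2 and 37.6 CPM) was the only cytosolic gene below 0, at -0.06. Its exons share bases with the stress gene Ddit3 on the opposite strand, as those of Hars do with Hars2. In all, 13 members share exon bases with another gene, Aars, Cars, Farsb, Yars and Ears2 among them, and whether the counting used strand is not given in the sources used here, so their values are uncertain to that extent. Aars shares bases with Exosc6 on the same strand, so for that overlap the strand setting would not settle its value.

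The 8 members of the multisynthetase complex (Eprs, Iars, Lars, Mars, Qars, Rars, Kars and Dars) were compared with the other 12 cytosolic genes as a description. Of the 8, 7 were above 0 at a median of 0.22 on the log2 scale, and 3 did not overlap between groups, against 49.1% above 0 and 4.02% without overlap and HFDfri higher among all tested genes. Of the 12, all 12 were above 0 with a median of 0.19, and 3 did not overlap, against the same shares. The scaffolds of the complex, which were not members, had log2 fold changes of 0.14 (Aimp1), 0.28 (Aimp2) and 0.21 (Eef1e1), and 0 of 3 passed the test, at an adjusted or an unadjusted p under 0.05 by edgeR.

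The mean log2 CPM of the cytosolic genes was between 4.75 and 4.84 in the 5 HFDfre libraries, and it was 5.15 in HFDfri 1, 4.84 in HFDfri 2, 5.12 in HFDfri 3 and 4.91 in HFDfri 4. HFDfri 1 and HFDfri 3 were thus clearly the highest, and HFDfri 2 was at the level of the highest HFDfre library. Of all 9 libraries, HFDfri 3 held the highest value for 10 of the 20 genes, HFDfri 1 for 9 and HFDfre 4 for 1 (Vars), while HFDfri 2 held the lowest value for 7.

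Different cytosolic genes were highest in these 2 libraries. Within HFDfri, HFDfri 3 was the highest for Dars, Eprs, Farsa, Farsb, Hars, Iars, Kars, Qars, Rars and Tars. HFDfri 1 was the highest for Aars, Cars, Gars, Lars, Mars, Nars, Sars, Vars, Wars and Yars. HFDfri 2 and HFDfri 4 were the highest for 0 of the 20. For Cars, HFDfri 1 was at 26.3 CPM, and the other 8 libraries were between 13.1 and 18.8 CPM. For Sars it was at 63.5 CPM, against 40.8 to 50.5 CPM in the others. Of the 6 members without overlap, only Nars was highest in HFDfri 1. Without HFDfri 1 the median log2 fold change of the cytosolic genes was 0.13 with 15 of 20 above 0, and without HFDfri 2 it was 0.26 with 20 of 20 above 0. The coefficient of variation of a cytosolic gene had a median of 6.58% in HFDfre and of 14.7% in HFDfri, against 10.4% and 12.5% for the mitochondrial genes without Lars2.

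**Figure D3:**
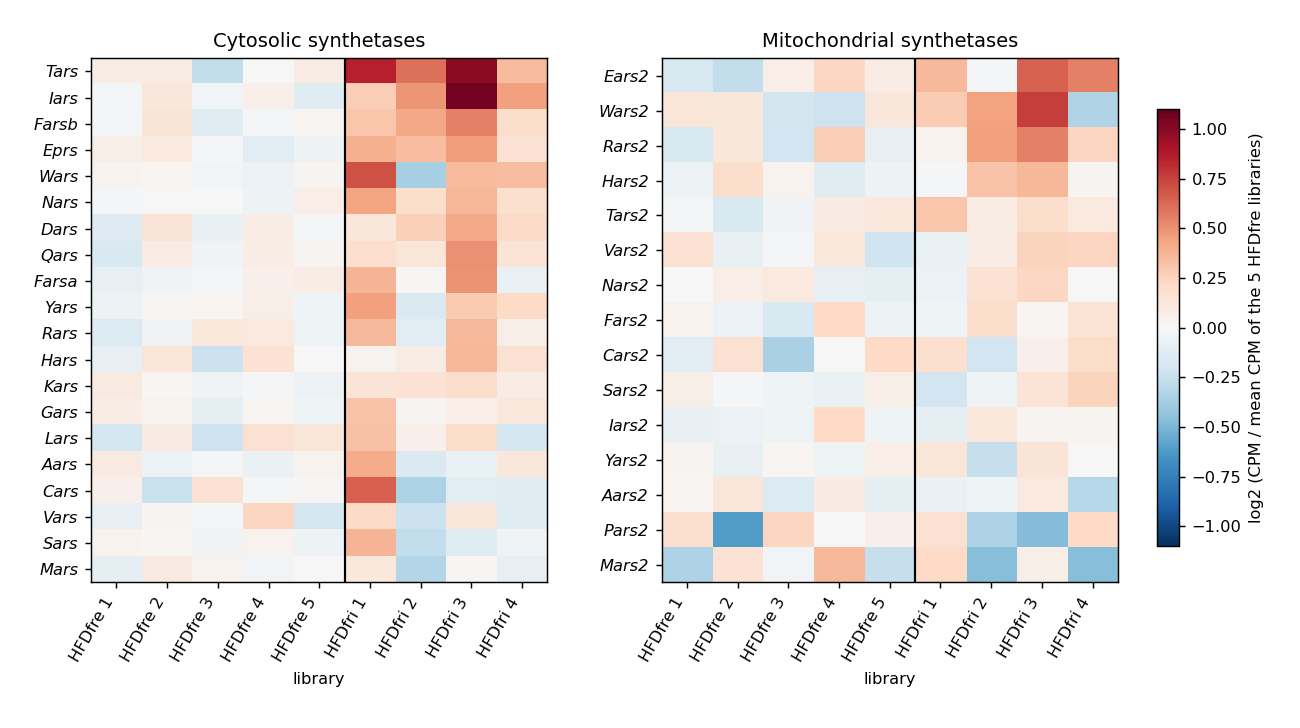
Log2 ratio of the CPM of each library to the mean of the 5 HFDfre libraries (colour, red above and blue below 0), for the 20 cytosolic genes and the 15 mitochondrial genes without Lars2; genes are in rows by log2 fold change and libraries in columns, with HFDfri to the right of the line. Red cells gather in HFDfri 1 and HFDfri 3 of the cytosolic panel, where HFDfri 2 is blue for genes such as Wars, Cars, Sars and Mars.

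Of the 16 mitochondrial synthetases, 12 had a log2 fold change above 0, against 49.1% of all tested genes, with a median of 0.07 (0.08 without Lars2). With edgeR, 0 of the 16 passed the adjusted threshold. An unadjusted p under 0.05 was found for 2, both higher in HFDfri, against 11.4% of all tested genes. In 0 of the 16 were the groups without overlap, against 4.02% of all tested genes with HFDfri higher and 3.66% with HFDfri lower, shares at which few of 16 genes would be found. Whether the mitochondrial and cytosolic sets differed from each other was not tested.

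The 2 genes were Ears2 and Rars2. Ears2, the mitochondrial glutamate enzyme, which also charges the glutamine tRNA of mitochondria with glutamate as the first of 2 steps, was at 4.47, 4.14, 5.28, 5.86 and 5.30 CPM in HFDfre 1 to 5 and at 6.41, 4.94, 7.86 and 7.35 CPM in HFDfri 1 to 4. HFDfri 2 lay among the HFDfre libraries and the other 3 HFDfri libraries lay above them, with a log2 fold change of 0.41 ± 0.16 (SE, edgeR adjusted p = 0.186). Rars2, for arginine, was at 5.64, 6.91, 5.46, 7.64 and 5.99 CPM in HFDfre 1 to 5 and at 6.50, 8.63, 9.29 and 7.44 CPM in HFDfri 1 to 4. The groups of Rars2 overlapped, with HFDfri 2 and 3 above the highest HFDfre library, and the log2 fold change was 0.33 ± 0.15 (SE, edgeR adjusted p = 0.224).

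Tars2, the mitochondrial partner of Tars, was at 17.2, 15.6, 17.0, 18.6 and 18.96 CPM in HFDfre 1 to 5 and at 21.6, 18.5, 20.0 and 18.8 CPM in HFDfri 1 to 4. HFDfri 1 and 3 lay above HFDfre and the other 2 within it, with a log2 fold change of 0.17 ± 0.09 (SE, edgeR adjusted p = 0.319). Hars2, for histidine, was at 15.8, 18.8, 16.9, 15 and 15.8 CPM in HFDfre 1 to 5 and at 16.3, 20.5, 21.2 and 16.8 CPM in HFDfri 1 to 4, and its log2 fold change was 0.18 ± 0.11 (SE, edgeR adjusted p = 0.371). Here too only 2 HFDfri libraries, 2 and 3, exceeded the HFDfre range. Wars2, for tryptophan and at a low level, was at 2.45, 2.43, 1.94, 1.91 and 2.44 CPM in HFDfre 1 to 5 and at 2.71, 3.04, 3.79 and 1.78 CPM in HFDfri 1 to 4. HFDfri 4 was the lowest of all 9 libraries and the other 3 HFDfri libraries were the highest, with a log2 fold change of 0.34 ± 0.22 (SE, edgeR adjusted p = 0.395).

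The other mitochondrial genes lay between -0.13 and 0.13 on the log2 scale, Lars2 apart. Vars2 (11.98 and 13.1 CPM) had a log2 fold change of 0.13, Nars2 (11.6 and 12.3 CPM) of 0.09, Fars2 (18.4 and 19.5 CPM) of 0.08 and Cars2 (8.18 and 8.56 CPM) of 0.06. Sars2 (5.44 and 5.61 CPM) was at 0.05, Iars2 (37.1 and 37.6 CPM) at 0.02 and Yars2 (11.2 and 11.3 CPM) at 0.01. Aars2 (14.4 and 13.7 CPM) was at -0.07, Pars2 (2.22 and 2.11 CPM) at -0.08 and Mars2 (2.07 and 1.89 CPM) at -0.13. None of these 10 genes had an unadjusted p under 0.05 by edgeR. HFDfri 3 held the highest value of all 9 libraries for 7 of the 15 genes without Lars2, and the mean of their log2 CPM was 3.01 to 3.13 in HFDfre and 3.09 to 3.27 in HFDfri.

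Lars2, the mitochondrial leucine enzyme (ENSMUSG00000035202, chromosome 9, 123366927 to 123462666), stood apart from every other synthetase. It was at 10905, 6373, 900.2, 3298 and 987 CPM in HFDfre 1 to 5 and at 597, 241, 3949 and 1297 CPM in HFDfri 1 to 4. The libraries of each group spanned a wide range and overlapped, with HFDfre 1 the highest and HFDfri 2 the lowest. The log2 fold change was -1.56 ± 0.85 (SE), with an edgeR adjusted p of 0.318. Its highest CPM was 45.2 times its lowest, where the same ratio had a median of 1.48 and a maximum of 2.40 among the other 35 synthetases. In HFDfre 1, the CPM of Lars2 was 12.6 times that of the other 35 synthetases summed, and in HFDfri 2 it was 0.266 times.

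The level of Lars2 followed the share of Gm26924, the ribosomal RNA-like locus, which was 11.1%, 7.50%, 1.25%, 5.58% and 1.199% in HFDfre 1 to 5 and 0.931%, 0.466%, 5.21% and 1.95% in HFDfri 1 to 4. Over the 9 libraries, log2 CPM of Lars2 and log2 share of the locus had a Pearson r of 0.992 (exact permutation p = 1.1e-05, adjusted 2.2e-05 over 2 relations) and a Spearman rho of 0.967 (exact permutation p = 0.000165, adjusted 0.000331). Without HFDfre 1 and HFDfre 2, the libraries farthest from the median share, r was 0.988 (exact permutation p = 0.000794, n = 7). The share of the mitochondrial ribosomal RNA mt-Rnr2 gave an r of 0.959 (exact permutation p = 4.96e-05, adjusted 4.96e-05) and a rho of 0.933 (exact permutation p = 0.00075, adjusted 0.00075), and r was 0.930 without the same 2 libraries (exact permutation p = 0.00357). Correlations were not computed within the groups, which held 5 and 4 libraries.

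**Figure D4:**
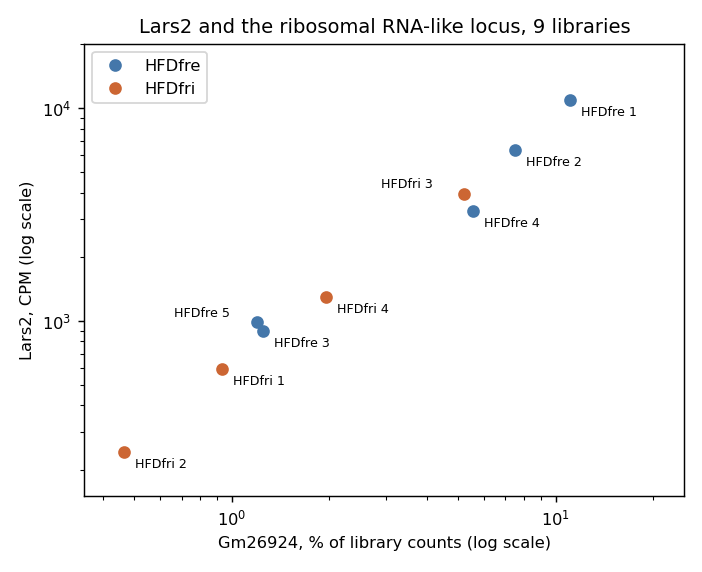
CPM of Lars2 (y axis, log scale) against the share of library counts at the ribosomal RNA-like locus Gm26924 (x axis, percent, log scale), 1 point for each of the 5 HFDfre (blue) and 4 HFDfri (orange) libraries. The points follow 1 line from HFDfri 2 (0.466%, 241 CPM) to HFDfre 1 (11.1%, 10905 CPM), with the groups intermixed.

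For each 100 counts of Gm26924 there were between 5.66 and 8.58 counts of Lars2 in every library, a 1.52-fold range, where Lars2 itself ranged 45.2-fold and the locus share 23.8-fold. Among 14219 tested genes, Lars2 ranked 2nd in its correlation with the locus. The others of the 10 highest were short noncoding RNAs or unnamed gene models, among them Rmrp, Rn7sk, Rpph1 and Metazoa_SRP. Among the other 35 synthetases r ranged from -0.43 to 0.60, with a median of -0.05 and 13 above 0. With the locus share as a covariate the log2 fold change of Lars2 was -0.11, and within the 5 libraries under 3% it was -0.41. It was -0.94 without HFDfre 1 and -2.66 without HFDfri 3. Whether reads other than those of Lars2 messenger RNA entered these counts was not tested.

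Levels were also compared between genes, per kb of the longest annotated protein-coding transcript of each gene. The cytosolic genes had a median of 11.2 CPM per kb over the 9 libraries, from 4.06 (Lars) to 26.5 (Aars), with Dars at 25.9 and Nars at 22.4. The mitochondrial genes without Lars2 had a median of 3.78 CPM per kb, from 0.176 (Mars2) to 8.89 (Fars2). The length used was 11294 bases for Mars2 and 2962 bases for Mars. Lars2, at 815 CPM per kb, was the highest of all 36. Its counts followed the share of Gm26924, and whether reads other than those of its messenger RNA entered them was not tested. Tars itself ranked 10th of the 36 at 12.2 CPM per kb.

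Each mitochondrial gene other than Lars2 was set against the cytosolic gene for the same amino acid, which gave 15 pairs. Farsa stood for the cytosolic phenylalanine enzyme, and Eprs was paired with both Ears2 and Pars2. In 13 of the 15 the cytosolic gene was higher per kb in the mean of both groups. The ratio of Mars to Mars2 was the most unequal, at 74.2 in HFDfre and 77.8 in HFDfri, and depends in part on the transcript lengths used. Before division by length, Mars was at 39.2 and 37.6 CPM and Mars2 at 2.07 and 1.89 CPM. The exceptions to a higher cytosolic level were Farsa to Fars2 (0.832 and 0.919) and Iars to Iars2 (0.512 and 0.759). Farsb, the other subunit, was not paired. It was at 8.26 CPM per kb in HFDfre and 10.7 in HFDfri, where Fars2 was at 8.65 and 9.18. The ratio of Iars to Iars2 was between 0.453 and 0.581 in HFDfre and at 0.657, 0.659, 1.04 and 0.678 in HFDfri 1 to 4. It was the only ratio of the 15 without overlap between the groups, as Iars2 had a log2 fold change of 0.02 where Iars had 0.60. For Tars to Tars2 the ratio had a mean of 1.75 ± 0.225 over the HFDfre libraries and of 2.54 ± 0.397 over the HFDfri libraries (SD), and its groups overlapped, with HFDfri 4 and HFDfre 2 both at 2.07. The cytosolic gene had the larger log2 fold change in 9 of the 15 pairs.

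**Figure D5:**
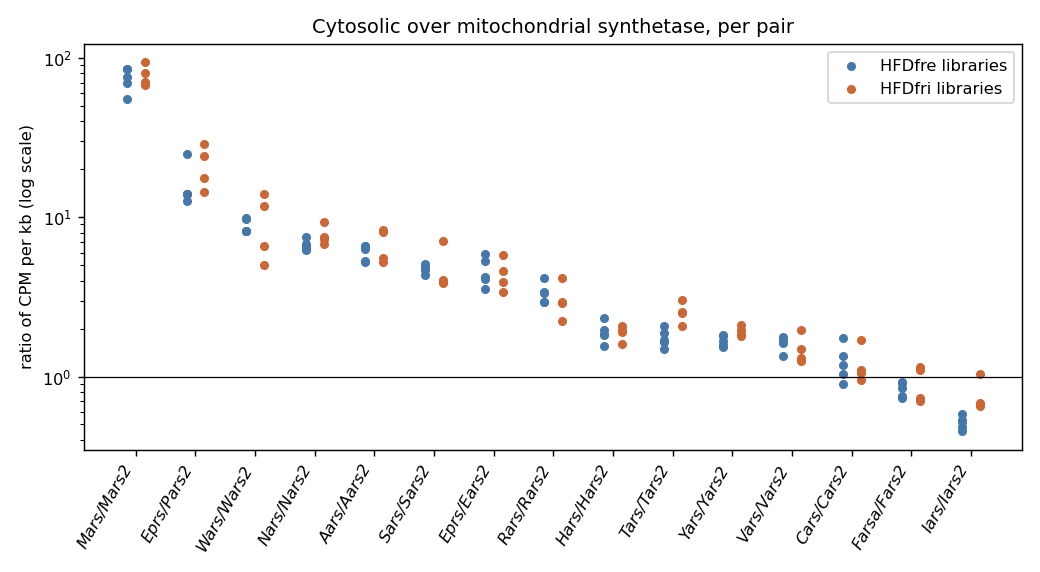
Ratio of the cytosolic to the mitochondrial synthetase for the same amino acid, both in CPM per kb (y axis, log scale, line at 1), for 15 pairs ordered by the mean ratio; 1 point for each HFDfre (blue) and HFDfri (orange) library. Most pairs lie above 1, Iars/Iars2 mostly lies below it, and its orange points (0.657 to 1.04) are all above its blue points (0.453 to 0.581).

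The genes that work beside the synthetases were described by lists, and 0 genes of the lists counted here passed the adjusted threshold by edgeR. Among the mitochondrial charging partners, Gatb, Gatc and Qrsl1 belong to the enzyme that turns glutamate into glutamine on its tRNA, Mtfmt formylates the initiator methionine, and Trnt1 adds the CCA end. Their log2 fold changes were -0.06 for Gatb, 0.19 for Gatc, -0.00 for Qrsl1, -0.18 for Mtfmt and 0.13 for Trnt1, and the groups overlapped for each (edgeR adjusted p = 0.775, 0.366, 0.997, 0.455 and 0.510).

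Of the 10 genes of the list of proofreading, recycling and selenocysteine, 2 were above 0, against 49.1% of all tested genes, their median on the log2 scale was -0.14, and 2 had every HFDfri library below every HFDfre library, against 3.66%. One was Pstk, the kinase that turns serine on the selenocysteine tRNA into phosphoserine, at 8.57, 7.69, 8.60, 7.64 and 8.38 CPM in HFDfre 1 to 5 and at 6.45, 5.79, 4.02 and 6.22 CPM in HFDfri 1 to 4. HFDfri 3, the library with the highest Tars, was the lowest for Pstk. Its log2 fold change was -0.54 ± 0.15 (SE), with an edgeR unadjusted p of 0.00298 and an adjusted p of 0.0853, the only one of the 10 with an unadjusted p under 0.05, against 9.79% of all tested genes with HFDfri lower. The other was Eefsec, the elongation factor that brings that tRNA to the ribosome, at 19.8 to 24.0 CPM in HFDfre and 18.0 to 19.4 CPM in HFDfri, with a value of -0.19 on the log2 scale (edgeR adjusted p = 0.249). Aarsd1, which clears serine from alanine tRNA, had a value of -0.19.

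Of 12 cytosolic translation factors, 10 were above 0, against 49.1% of all tested genes, and their median on the log2 scale was 0.24. An unadjusted p under 0.05 by edgeR was found for 7 with HFDfri higher, against 11.4%, and for 0 with HFDfri lower, against 9.79%. Eif2s1, the subunit of eIF2 whose phosphorylation leads to ATF4, went from 23.2 ± 2.48 to 30.5 ± 3.67 CPM (log2 fold change 0.39, edgeR adjusted p = 0.0917). Eif2s3x, another eIF2 subunit, went from 29.9 ± 3.15 to 41.8 ± 9.43 CPM (0.49, edgeR adjusted p = 0.107). Eef1g, of the elongation factor complex that recycles the carrier of charged tRNA, was the only one of the 12 without overlap. It was at 79.7 to 101 CPM in HFDfre and 105 to 126 CPM in HFDfri (0.30, edgeR adjusted p = 0.113). Of all tested genes, 4.02% had no overlap with HFDfri higher. Of 10 mitochondrial translation factors, 9 were above 0, against 49.1% of all tested genes, with a median of 0.11. By edgeR, 0 of the 10 had an unadjusted p under 0.05. Of all tested genes, 11.4% had this with HFDfri higher and 9.79% with HFDfri lower, shares at which few of 10 genes would be found. Among the mitochondrial factors Tufm, the mitochondrial carrier of charged tRNA, was at 0.24, Gfm1 at 0.20 and Mrrf at 0.17.

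The amino acid response was described by 24 genes known as targets or partners of ATF4, of which 23 were tested. Of these, 15 were above 0, against 49.1% of all tested genes, with a median log2 fold change of 0.12. An unadjusted p under 0.05 was found for 2 with HFDfri higher (Asns and Cebpg), against 11.4%, and for 3 with HFDfri lower (Trib3, Cebpb and Slc3a2), against 9.79%. Asns, the asparagine synthetase, was at 0.289, 0, 0.122, 0.211 and 0.294 CPM in HFDfre 1 to 5 and at 2.19, 0.152, 0.231 and 2.29 CPM in HFDfri 1 to 4. Only HFDfri 1 and HFDfri 4 were above the HFDfre range, and HFDfri 3, the highest for Tars and Iars, was not. The log2 fold change of Asns was 2.71 ± 0.89 (SE, edgeR adjusted p = 0.124).

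Trib3, an inhibitor of ATF4 that is itself induced by it, was at 4.51 to 6.91 CPM in HFDfre and 2.99 to 5.23 CPM in HFDfri, and its log2 fold change was -0.59 ± 0.19 (SE, edgeR adjusted p = 0.118). Cebpb had a value of -0.60 (edgeR adjusted p = 0.162), while Cebpg at 0.25 and Slc3a2 at -0.22 were named after their values were seen. The mean log2 CPM of the tested genes of the list was 1.39 to 1.92 in HFDfre and 2.28, 1.598, 1.70 and 2.02 in HFDfri 1 to 4. HFDfri 1 and HFDfri 4 were above HFDfre for this list, and HFDfri 2 and HFDfri 3 were not. For the cytosolic synthetases the high libraries were HFDfri 1 and HFDfri 3. The list mean weighs every gene alike. It includes genes of very low level, such as Asns, Psat1 and Phgdh, at means of 0.183, 0.287 and 0.187 CPM in HFDfre.

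All 4 kinases that phosphorylate eIF2 had log2 fold changes above 0, against 49.1% of all tested genes. The value of Eif2ak1 was 0.05, that of GCN2 (Eif2ak4) 0.12 and that of Eif2ak2, which senses double-stranded RNA, 0.16. Eif2ak3, the kinase PERK of the endoplasmic reticulum, was at 5.14, 4.45, 5.28, 5.69 and 6.90 CPM in HFDfre 1 to 5 and at 7.18, 6.44, 22.4 and 5.89 CPM in HFDfri 1 to 4. The high value in HFDfri 3 set the mean of the group, and the log2 fold change was 0.93 ± 0.35 (SE, edgeR adjusted p = 0.166). Eif2ak3 was the only one of the 4 with an unadjusted p under 0.05, against 11.4% of all tested genes with HFDfri higher.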

How the data were processed

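The liver libraries (5 HFDfre, 4 HFDfri) were mapped to groups by their titles. Per the submitters' processing notes, HISAT2, StringTie and the build mm10 were used; the study's methods name HISAT2 alone. The labels name a NEBNext Ultra kit, whereas a KAPA RNA HyperPrep kit is named in the methods. Annotation and strand setting are not given in the sources used here. The authors deposited whole-number estimated counts per gene, not scaled between libraries, which were used as they stood, so count models treat counting error only approximately. The members and lists were chosen with earlier results of these data known, and the lists were written from general knowledge.

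Of the 33211 genes, 14220 were kept with filterByExpr by group. HFDfri was compared with HFDfre in all 9 libraries with edgeR 4.0.16 (R 4.3.3), using its quasi-likelihood test, TMM and no covariate, with Benjamini-Hochberg adjustment over every tested gene. Where DESeq2 is named it is version 1.42.0, the tool of the study, run as an alternative. The SE of a log2 fold change is that value over the root of F, without its sign, and log2 CPM used a prior count of 2. P-values measure only the spread between these libraries, with 1 per animal, so differences between animals and those of library preparation cannot be told apart in it. More counts in a gene make its value less dependent on counting error. The lowest count of a member in any library was 85 (Mars2). Lists were described by counts and medians, with no test, and some items, with the results that need them, are not reported here. The values in every library were given for members past the adjusted threshold, for the 6 cytosolic and 6 mitochondrial members of smallest p, and for Lars2, Gars and Kars. At most 3 genes of smallest p were named in most other lists. Exceptions were the charging partners, of which 5 were named after their values were seen, and Cebpg and Slc3a2 of the amino acid response list. All 4 eIF2 kinases and several cell type markers were named as well. Correlations over libraries were tested by two-sided exact permutation.

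Coordinates and transcript lengths, for the longest protein-coding transcript of a gene, are from GENCODE M21 (GRCm38), which held 96.3% of the gene identifiers. The start windows are those of RefSeq. The alternatives were DESeq2, limma-voom (limma 3.58.1), DESeq2 size factors, library totals, no filter, at least 10 counts in every library, robust dispersion, the replicate number as a block, the share of Gm26924 as a covariate, and leaving out each library. Chosen after seeing the data were leaving mitochondrial transcripts and Gm26924 out before scaling, using only the 5 libraries under 3% of it, and a mitochondrial median without Lars2. The edgeR fit was tested on simulated counts with log2 changes of 1 and 2, of which 82 and 100 of 100 genes were recovered. Of 188 calls, 6 were false. Smaller changes, such as those of all synthetases here except Lars2, were not simulated, so the recovery of changes of that size was not tested.

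By the replicate numbers of the titles no pairing was seen: deviations of same-numbered libraries from their group means correlated at over 0.1 in 0 of 4 pairs. The titles also hold a sample code in brackets, by which the libraries were not matched, so any other pairing was not tested.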

Additional observations from a re-analysis of the deposited data

Results flagged for a closer look

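Each of 41 measures (the 36 genes and 5 list means) was screened in both groups for 1 library distant from the rest. Of these 82 screens, 4 found one, where a rate of 5% would give 4.10 by chance. In HFDfri 3, Qars had a log2 CPM of 5.48, above the 5.11 to 5.16 of the other HFDfri libraries by 0.868 of the whole range. In HFDfre 3, Tars had 4.97, below the 5.24 to 5.32 of the rest of HFDfre by 0.771 of the range. In HFDfre 4, Iars2 had 5.44, above the 5.13 to 5.16 of the rest by 0.879. In HFDfre 2, Pars2, with few counts, had 0.565, below the 1.16 to 1.40 of the rest by 0.710. What set these libraries apart was not tested.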

How the results depend on the processing

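The number of synthetases past the adjusted threshold, 1 with edgeR, was 5 with DESeq2 (Eprs, Farsb, Iars, Nars and Tars), and it was 0 with the share of Gm26924 as a covariate and 0 within the 5 libraries under a share of 3%. It was 0 to 3 when 1 library was left out, with 0 without each HFDfre library and without HFDfri 3, and 3 (Farsb, Iars and Tars) without HFDfri 1. The calls over all tested genes changed as well. They were 1106 without HFDfri 1, 10 without HFDfri 3, 6 without HFDfre 3 or HFDfre 5, 38 with the covariate and 2 within the libraries under 3%. The 2 counts did not always move together. Without HFDfri 4 there were 26 calls with 1 synthetase among them. Without HFDfre 1, 2 and 4 there were 39, 51 and 46 calls with 0 synthetases. The adjusted p of Tars ranged from 9.97e-05 (DESeq2) to 0.408 (within the libraries under 3%). The number at an unadjusted p under 0.05 with HFDfri higher, 9, was 4 within the libraries under 3%, and it was 5 (without HFDfri 3) to 11 (without HFDfri 2) when 1 library was left out. With HFDfri lower it was 0, and 0 to 1 when 1 library was left out (1 without HFDfre 3 and 1 without HFDfri 3). The cause of these changes was not tested, but fewer libraries enter the fits that leave some out.

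No pairing of the libraries was seen by the replicate numbers of the titles. With the replicate number as a block, 0 synthetases passed the adjusted threshold (adjusted p of Tars 0.153), 7 had an unadjusted p under 0.05 with HFDfri higher, and the median log2 fold change was 0.182 for the cytosolic and 0.0691 for the mitochondrial genes.

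Over all 20 alternatives the median log2 fold change of the cytosolic genes stayed above 0. It was 0.134 (without HFDfri 1) to 0.261 (without HFDfri 2) when 1 library was left out, and that of the mitochondrial genes was 0.0325 to 0.112. Genes near 0 changed sign. Sars was at -0.00682 with at least 10 counts in every library, -0.0189 with limma-voom, -0.007 with no filter and -0.0329 with the block, and Vars was at -0.00799, -0.00636, -0.00771 and -0.0485. Yars2 was at -0.000287 with at least 10 counts, -0.000398 with limma-voom and -0.0876 within the libraries under 3%, where Sars2 was at -0.00598. Aars2 was at 0.00599 with the covariate. With 1 library left out, Aars ranged from -0.0378 to 0.168, Cars from -0.209 to 0.184, Cars2 from -0.0195 to 0.145, Iars2 from -0.0103 to 0.0823, Mars from -0.135 to 0.0179, Pars2 from -0.202 to 0.0383, Sars from -0.155 to 0.0824, Sars2 from -0.027 to 0.109, Vars from -0.0855 to 0.0743 and Yars2 from -0.0428 to 0.0902. Scaling by library totals moved the medians to 0.245 and 0.129.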
